A study of Mus musculus with 6 samples.

Results

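B16-F1R2L is a mouse melanoma line that was established from a lung metastasis, itself derived from a lymph node metastasis, and its gene expression was set against that of B16-F1, the line of low metastatic potential at the base of the series. The genes compared were chosen by level: all those with at least 1 FPKM (the unit of level here, in which the fragments mapped to a transcript are scaled to its length and to the size of the library) in at least 2 of the 4 libraries of both lines, without the genes of small RNAs, which a poly(A) library does not capture well. 11158 of the 23951 genes in the table met this rule. Polyadenylated RNA was sequenced from untreated cultures grown in high-glucose DMEM with 10% foetal bovine serum, in 2 libraries per line. The comparison asked how the RNA of this lung-derived line differs from that of the line it descends from. B16-F1R2, the lymph node line of the same series, shares the 2 libraries of B16-F1 as its control and is used only where it shows what B16-F1R2L does not share with it.

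Several features of the design limit the 2 lines as a model. Each line is a single cultured derivative, so every difference is a difference between 2 lines and not between metastatic and non-metastatic melanoma in general. By the sample labels, B16-F1 was bought from ATCC, whereas B16-F1R2L and B16-F1R2 came from a laboratory at ETH Zurich, and line and source cannot be told apart. Whether each line was grown in separate cultures for its 2 libraries is not stated in the labels, so the p-values measure the spread between these libraries, which may be technical.

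B16 cells are transformed melanocytes. Melanocytes make melanin in melanosomes, with tyrosinase as the rate-limiting enzyme, under the transcription factors MITF and SOX10, and melanoma cells are known to move between pigmented and less differentiated states. The other gene groups described here cover interferon response and antigen presentation, stress and nutrient responses, metabolism, the extracellular matrix and its receptors, growth signalling and proliferation, all much studied in metastatic melanoma.

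The libraries were alike in depth and held a melanocytic transcriptome. From the smallest steps between low FPKM values the depth was estimated at 1.18e+07 to 1.46e+07 reads per library, at which 1 read over 1000 bases of transcript is worth 0.0685 to 0.0847 FPKM, so that levels well below 1 FPKM rest on a handful of reads. B16-F1R2L had more genes at 1 FPKM or above (11157 and 11168) than B16-F1 (10617 and 10619). All 7 melanocyte markers were present in every library, with summed levels of 14970 and 15007 FPKM in B16-F1 and 8933 and 8924 FPKM in B16-F1R2L. Defining markers of leukocytes (Ptprc, Cd3e), endothelium (Cdh5, Kdr) and lung epithelium (Sftpc) were listed at 0 in all 6 libraries. Not all markers were: 8 of 17 leukocyte, 6 of 12 endothelial and 5 of 13 lung epithelial markers were at 0 in all 4 libraries of the 2 lines. Among leukocyte markers, Cd79a stood at 0 and 0.0593 FPKM in B16-F1 and 17.1 and 15.9 FPKM in B16-F1R2L. Of 12 endothelial markers 4 passed the filter, of which Pecam1 (0 and 0 FPKM in B16-F1, 1.09 and 1.26 FPKM in B16-F1R2L) and Vwf (0.0875 and 0.144 and 1.71 and 2.15 FPKM), admitted only through B16-F1R2L, were higher and Prox1 and Pdpn lower (in limma, the call of Prox1 was lost without any 1 library of these lines, adjusted p 0.094 to 0.12, and that of Pdpn without B16-F1 library 2, 0.081, or B16-F1R2L library 1, 0.076), and the list summed to 11.7 and 12.996 FPKM in B16-F1 and 10.3 and 11.7 FPKM in B16-F1R2L. No lung epithelial or erythroid marker passed it. In bulk RNA of this kind, fewer cells of a type and less RNA per cell cannot be told apart.

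Expression differed widely between B16-F1R2L and B16-F1, and over all genes tested the large differences were mostly gains. With limma on log2(FPKM + 0.1), 3304 genes (29.6%) were higher and 3069 (27.5%) lower in B16-F1R2L at an adjusted p below 0.05, together 57.1% of all genes tested. Log2 fold changes are given ± SE (2 libraries per line), and a gene said to have risen or fallen passed this test, also where its adjusted p is not printed. Over all genes the median absolute log2 fold change was 0.27 against a median SE of 0.075, and 1509 of the genes called higher and 1998 of those called lower differed by a log2 fold change under 0.5. Among genes that also differed by a log2 fold change of at least 1 in size, 907 (8.13%) were higher and 245 (2.2%) lower. At a size of 4 or more, 198 genes were higher and 22 lower. The genes tested include 602 that passed the filter only through B16-F1R2L (579 called higher) and 114 only through B16-F1 (102 called lower). These had to differ, so the excess of large gains is partly set by the filter. Of the other 10442 genes, 2725 were higher and 2967 lower, and their counts by size are not given. In 81.3% of the genes the 2 libraries of one line lay entirely above the 2 of the other, which, together with a smallest two-sided exact p of 0.333 for 2 libraries against 2, makes a non-overlap of single genes a weak statement here. The balance of rises and falls depended on the scaling: 51.8% of the called genes were higher here, 66.4% when each library was rescaled to an equal FPKM total (which moved the median of all genes by 0.1 on the log2 scale), 48.6% with median-of-ratios scaling, 44.6% with quantile normalization, and 46.0% with a filter of 5 FPKM. Small differences are best read relative to that shift.

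**Figure D1:**
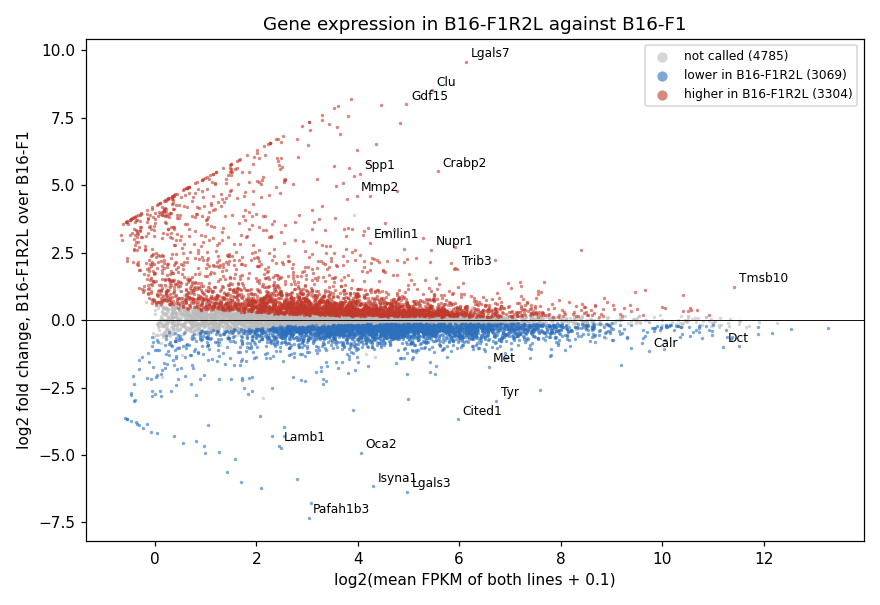
Log2 fold change of each of the 11158 genes in B16-F1R2L over B16-F1 (vertical axis) against the log2 of its mean level over both lines (horizontal axis, FPKM + 0.1). Each point is 1 gene, coloured by its call; the 3304 genes called higher reach far larger changes than the 3069 called lower, from Lgals7 and Clu at the top to Lgals3 and Pafah1b3 at the bottom, and the straight upper and lower edges at the left are genes at or near 0 in 1 of the lines.

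A set of genes was near or at 0 in B16-F1 and clearly expressed in B16-F1R2L. 85 genes had a value of 0 in both libraries of B16-F1, against 12 listed at 0 in both B16-F1R2L libraries. With a stricter definition, 42 genes stayed below 0.1 FPKM in both B16-F1 libraries and exceeded 5 FPKM in both B16-F1R2L libraries, and 4 genes showed the opposite. The fitted fold changes of such genes depend on the pseudocount, so their levels say more than their ratios.

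Lgals7 (mm9 chromosome 7, 29648872 to 29651303, plus strand), which encodes galectin-7, a lectin of stratified epithelia linked to cell death, was the largest gain. It stood at 0.235 and 0 FPKM in the B16-F1 libraries and at 142 and 138 FPKM in the B16-F1R2L libraries (adjusted p = 2.08e-05). Clu (chromosome 14, 66587320 to 66600385, plus strand), encoding the secreted chaperone clusterin, was measured at 0.137 and 0.143 FPKM in B16-F1 and 89.9 and 86.4 FPKM in B16-F1R2L (log2 fold change 8.52 ± 0.064, adjusted p = 3.92e-08). Both genes were thus near the detection limit in B16-F1 and well expressed in B16-F1R2L. The rule that chose them asked for a mean of at least 10 FPKM in the higher line and libraries that do not overlap. With a pseudocount of 1 the log2 fold change of Clu was 6.29 and with 0.01 it was 9.20.

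Gdf15 (chromosome 8, 73153292 to 73156355, minus strand) encodes a stress-induced cytokine of the TGF-beta superfamily. Its levels were 0.139 and 0.144 FPKM in B16-F1 and 65.7 and 57.97 FPKM in B16-F1R2L (log2 fold change 7.999 ± 0.086, adjusted p = 7.65e-08). The lymph node line held 23.5 and 22.2 FPKM, so Gdf15 also lay higher in B16-F1R2L than there (log2 fold change 1.43 ± 0.086, adjusted p = 0.000886). Il17b, an interleukin-17 family cytokine, was listed at 0 and 0.205 FPKM in B16-F1 and reached 44.7 and 42.9 FPKM in B16-F1R2L. Fxyd1, a regulator of the sodium pump, had a value of 0 in both libraries of B16-F1 and measured 30.2 and 27.6 FPKM in B16-F1R2L. The same contrast held for Mrap, the accessory protein of the ACTH receptor, with 0 in B16-F1 and 25.1 and 23.6 FPKM in B16-F1R2L. The 6 other largest gains were Lrmp, As3mt, Fam3b, Slc12a8, Cyct and Defb25. They stood at no more than 0.116 FPKM in any B16-F1 library and between 15.2 and 30.3 FPKM in the B16-F1R2L libraries.

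The largest losses were fewer and included well known genes of invasion and redox biology. Pafah1b3 (chromosome 7, 26080068 to 26083005, minus strand), a catalytic subunit of a platelet-activating factor acetylhydrolase, fell from 15.5 and 16.8 FPKM (B16-F1) to 0 in both B16-F1R2L libraries (adjusted p = 3.68e-05). Cyba (chromosome 8, 124948672 to 124956840, minus strand), the p22phox subunit shared by NADPH oxidases, fell from 16.6 and 16.7 FPKM to 0 and 0.129 FPKM (adjusted p = 3.65e-05). Lgals3 (chromosome 14, 47987426 to 48005835, plus strand), encoding galectin-3, was at 60.1 and 62.98 FPKM in B16-F1 and 0.511 and 0.803 FPKM in B16-F1R2L (log2 fold change -6.37 ± 0.23, adjusted p = 4.95e-06). The genes of galectin-3 and galectin-7 thus moved in opposite directions.

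Isyna1 (chromosome 8, 73118380 to 73121187, plus strand), the inositol-3-phosphate synthase, measured 36.9 and 40.5 FPKM in B16-F1 and 0.47997 and 0.405 FPKM in B16-F1R2L (log2 fold change -6.16 ± 0.16, adjusted p = 1.82e-06). Cited1, a transcriptional co-regulator abundant in pigment cells, went from 113 and 119 FPKM to 7.29 and 11.04 FPKM (log2 fold change -3.68 ± 0.22, adjusted p = 3.97e-05). Lamb1, the laminin beta-1 chain, went from 10.4 and 10.4 FPKM to 0.382 and 0.256 FPKM (log2 fold change -4.66 ± 0.19, adjusted p = 7.21e-06). All 3 were thus at a small fraction of their B16-F1 level. Dkk3, Oca2, Ddah2, Tmsb4x, Gpr37 and Mgll completed the 12 largest losses among genes with a mean of at least 10 FPKM in the higher line. Their levels were 9.72 to 32.8 FPKM in B16-F1 and 0.0696 to 2.90 FPKM in B16-F1R2L. Tmsb4x has many near-identical copies in the genome, and its level is uncertain where reads could be split among them.

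**Figure D2:**
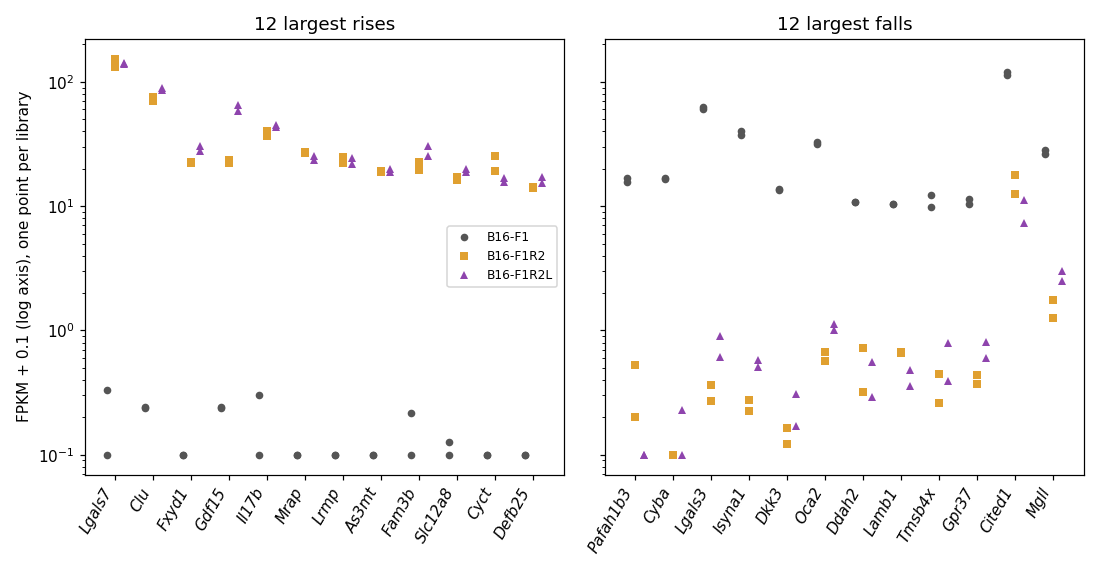
Levels of the 12 genes with the largest rise (left) and the 12 with the largest fall (right) in B16-F1R2L against B16-F1, on a log axis of FPKM + 0.1, with 1 point per library and B16-F1R2 drawn beside them. The 24 genes were chosen among called genes with a mean of at least 10 FPKM in the higher line and libraries that do not overlap. Their separation is therefore set by the choice and is not a result. In B16-F1R2L they run from Lgals7 at 142 and 138 FPKM to Pafah1b3 at 0 in both libraries.

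Gene lists are described by how many of their genes passed the test in each direction and by their median log2 fold change, beside 29.6% higher, 27.5% lower and a median of 0.015 over all genes. A gene under 1 FPKM in both libraries of one line passed the filter only through the other line, where it is high, so it had to differ: 602 genes passed only through B16-F1R2L (579 called higher) and 114 only through B16-F1 (102 called lower). Of the other 10442 genes, 2725 were higher and 2967 lower (median -0.0072). Where 2 or more genes of a list were admitted by 1 line only, its counts over the genes that reached 1 FPKM in both lines are given as well (for the marker lists, the genes admitted that way are named).

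**Figure D3:**
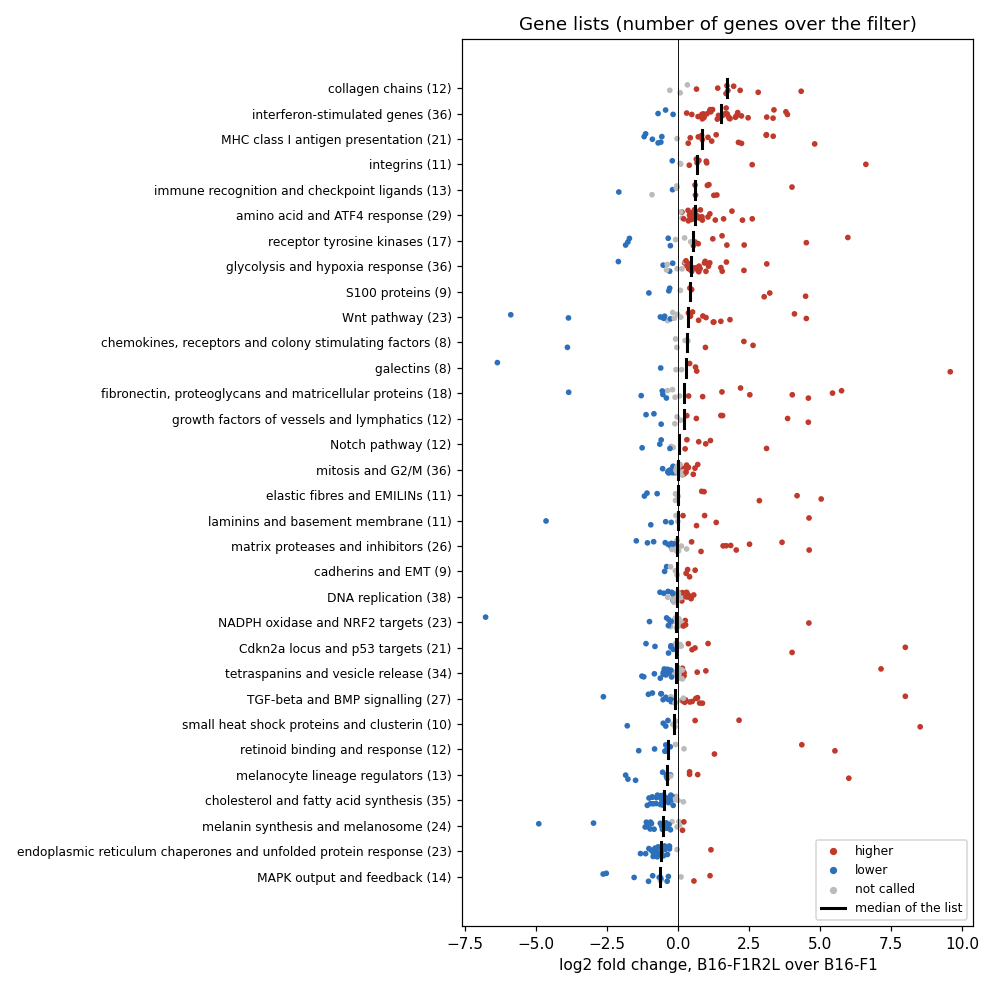
Log2 fold change of each gene (1 point) of 32 gene lists in B16-F1R2L over B16-F1, with the list's median as a bar, ordered by that median and coloured by call. Collagen chains (median 1.70, of which 5 of 12 passed the filter only through B16-F1R2L, and 0.64 without these) and interferon-stimulated genes (1.49, and 1.14 without 9 such genes) have the highest medians, and genes of MAPK feedback (-0.63), the endoplasmic reticulum (-0.62), pigment (-0.54) and cholesterol synthesis (-0.52) at the bottom.

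Pigment genes were lower in B16-F1R2L than in B16-F1, some of them strongly. Of 24 genes of melanin synthesis and the melanosome, 18 fell and 2 rose (median -0.54); none rose without either B16-F1 library or without B16-F1R2L library 2, and 1 without either B16-F1R2 library. MITF binds E-boxes near the start of pigment genes, and the 250 bases before the start site of the 3 enzymes of melanin synthesis are shown here because each holds such a motif, CATGTG on either strand, in capitals (RefSeq, GRCm38.p6, 5′ to 3′ on the gene's strand: Tyr chr7:87493513-87493762, minus; Tyrp1 chr4:80833963-80834212, plus; Dct chr14:118052247-118052496, minus).
Tyr: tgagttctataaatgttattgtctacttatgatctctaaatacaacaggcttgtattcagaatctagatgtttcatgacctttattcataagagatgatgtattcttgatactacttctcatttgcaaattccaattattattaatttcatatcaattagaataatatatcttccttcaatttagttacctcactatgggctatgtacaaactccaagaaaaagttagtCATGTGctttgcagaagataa
Tyrp1: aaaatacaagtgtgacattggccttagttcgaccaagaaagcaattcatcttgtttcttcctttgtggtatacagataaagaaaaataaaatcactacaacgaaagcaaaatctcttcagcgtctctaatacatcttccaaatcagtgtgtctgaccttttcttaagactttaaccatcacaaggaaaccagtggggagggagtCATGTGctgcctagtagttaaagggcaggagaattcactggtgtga
Dct: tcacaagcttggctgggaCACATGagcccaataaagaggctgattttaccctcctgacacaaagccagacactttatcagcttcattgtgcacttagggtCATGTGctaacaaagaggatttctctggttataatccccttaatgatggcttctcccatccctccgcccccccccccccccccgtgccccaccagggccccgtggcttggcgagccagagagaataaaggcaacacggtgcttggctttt
An E-box of the form CATGTG or CACGTG, searched on both strands of these windows, was found in 12 of the 19 pigment genes with an entry in the promoter table (63.2%) and in 17.6% of all 32851 promoters. The motif was also present before Mc1r, Rab27a, Hps1 and Hps5, none of which was called lower, and a match describes letters and not binding.

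Tyr (chromosome 7, 94574910 to 94641943, minus strand) encodes tyrosinase, which catalyses the first step of melanin synthesis. Its 2 libraries measured 192 and 186 FPKM in B16-F1 and 22.4 and 25.1 FPKM in B16-F1R2L (log2 fold change -2.99 ± 0.064, adjusted p = 7.17e-07), a ratio of means of 7.94. Oca2, an anion channel that sets the pH of the melanosome, went from 31.4 and 32.8 FPKM to 0.905 and 1.04 FPKM (log2 fold change -4.91 ± 0.13, adjusted p = 1.76e-06). These 2 genes fell far more than the other pigment genes. Dct, the dopachrome tautomerase, was at 3155 and 3101 FPKM and 1542 and 1606 FPKM (log2 fold change -0.99 ± 0.054, adjusted p = 2.58e-05). Pmel, which forms the fibrils of the melanosome, was at 3864 and 3929.6 FPKM and 1987 and 1970.5 FPKM (log2 fold change -0.98 ± 0.054, adjusted p = 2.93e-05). Tyrp1 stood at 3015 and 3034 FPKM in B16-F1 and 1932 and 1967 FPKM in B16-F1R2L (log2 fold change -0.63 ± 0.054, adjusted p = 0.00016). Despite their fall, Dct, Pmel and Tyrp1 therefore remained among the most abundant RNAs of the lung-derived line. Slc45a2 and Rab32, a transporter and a trafficking GTPase of the melanosome, fell by 1.12 and 1.17 on the log2 scale. Mc1r, the melanocortin receptor, measured 91.4 and 91.8 FPKM and 95.3 and 90.8 FPKM and was not called (adjusted p = 0.702). Relative to B16-F1R2, 11 of the 24 pigment genes were higher in B16-F1R2L and none lower, beside 12.3% and 10.5% of all genes. Tyr was among the 11, at 14.7 and 14.2 FPKM in B16-F1R2 (log2 fold change 0.71 ± 0.064, adjusted p = 0.0028).

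The regulators of the lineage did not all follow their targets. Mitf was higher in B16-F1R2L, at 112 and 127 FPKM, than in B16-F1, at 92.3 and 88.7 FPKM (log2 fold change 0.40 ± 0.068, adjusted p = 0.00315). It also lay above B16-F1R2, at 79.5 and 83.6 FPKM (log2 fold change 0.55 ± 0.068, adjusted p = 0.00656). Sox10 fell from 221 and 228 FPKM to 176 and 167 FPKM (log2 fold change -0.39 ± 0.045, adjusted p = 0.000606). The 2 master regulators thus differed from B16-F1 in opposite directions, both by less than a log2 fold change of 0.5. Ngfr, the p75 neurotrophin receptor of the neural crest, went from 0.0748 and 0.0526 FPKM to 10.5 and 10.3 FPKM (log2 fold change 6.01 ± 0.15, adjusted p = 1.34e-06). Erbb3, the neuregulin receptor of the neural crest lineage, fell from 23.1 and 24.9 FPKM to 6.496 and 6.62 FPKM (log2 fold change -1.86 ± 0.073, adjusted p = 6.82e-06). In all, 4 of 13 regulators rose (Mitf, Zeb2, Sox5 and Ngfr) and 8 fell (median -0.39), and of the 11 that reached 1 FPKM in both lines 3 rose and 7 fell (median -0.39).

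Retinoid genes moved in both directions. Crabp2, which carries retinoic acid to the nucleus, rose from 1.82 and 2.08 FPKM (B16-F1) to 98.2 and 89.5 FPKM in B16-F1R2L (log2 fold change 5.52 ± 0.082, adjusted p = 1.83e-07). The receptor Rarb fell from 6.61 and 6.47 FPKM to 2.31 and 2.55 FPKM (log2 fold change -1.39 ± 0.10, adjusted p = 7.28e-05). Of 12 genes of the retinoid list 3 rose and 7 fell, the latter including the receptors Rara, Rarg, Rxra and Rxrb.

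Interferon-stimulated genes were almost all higher in B16-F1R2L. Type I interferons act through a complex that contains IRF9, which binds interferon-stimulated response elements and induces antiviral genes. Of 36 such genes 33 rose and 3 fell (Irf1, Gbp2 and Ifitm2), 25 of them rose by a log2 fold change of at least 1, and the median was 1.49. Without the 9 genes that passed the filter only through B16-F1R2L, 24 of 27 rose and 3 fell (median 1.14). The falls counted 1 without either B16-F1 library or without B16-F1R2L library 2, and 2 without any other library. The response element can be seen in 2 promoters of the list, printed with matches to GAAANNGAAA on either strand in capitals (RefSeq, GRCm38.p6: Isg15 chr4:156200819-156201068, minus; Ifit3 chr19:34583279-34583528, plus).
Isg15: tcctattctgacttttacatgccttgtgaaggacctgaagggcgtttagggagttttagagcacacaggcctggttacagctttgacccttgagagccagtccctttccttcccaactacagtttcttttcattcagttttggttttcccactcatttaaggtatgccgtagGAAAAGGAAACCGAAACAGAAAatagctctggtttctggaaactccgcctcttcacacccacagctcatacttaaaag
Ifit3: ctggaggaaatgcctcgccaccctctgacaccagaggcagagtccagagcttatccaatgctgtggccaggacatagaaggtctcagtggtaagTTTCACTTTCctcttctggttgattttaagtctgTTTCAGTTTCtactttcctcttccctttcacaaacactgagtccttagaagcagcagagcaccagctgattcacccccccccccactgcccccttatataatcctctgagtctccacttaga
This motif, chosen after the values of the list were known, was found in 14 of 26 listed genes with an entry (53.8%) and in 2.98% of all promoters. The 3 matches before Isg15 overlap one another. Gbp2 and Ifitm2, which fell, also held it.

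Isg15 encodes the ubiquitin-like modifier induced by interferon. It measured 9.26 and 9.81 FPKM in B16-F1 and 44.2 and 45.7 FPKM in B16-F1R2L (log2 fold change 2.23 ± 0.055, adjusted p = 1.38e-06). Usp18, which removes ISG15 from proteins and restrains the interferon receptor, was at 1.25 and 1.56 FPKM and 14.2 and 16.6 FPKM (log2 fold change 3.37 ± 0.13, adjusted p = 6.97e-06). Irf7, the factor that amplifies interferon production, was at 0.571 and 0.804 FPKM and 6.75 and 8.97 FPKM (log2 fold change 3.34 ± 0.20, adjusted p = 4.06e-05). Rtp4 rose from 0.9702 and 0.8405 FPKM to 7.77 and 9.52 FPKM (log2 fold change 3.12 ± 0.13, adjusted p = 8.94e-06). The lines did not overlap in any of the 36 genes, beside 81.3% of all genes. Irf9, named after its values were seen, rose with the list, from 4.85 and 5.196 FPKM to 20.3 and 21.7 FPKM (log2 fold change 2.04 ± 0.091, adjusted p = 1.12e-05). Against B16-F1R2, 19 of the 36 genes were also higher in B16-F1R2L and 1 was lower, beside 12.3% and 10.5% of all genes in that contrast; without B16-F1R2 library 1, B16-F1R2 library 2 or B16-F1R2L library 2, 7, 12 and 6 genes were higher. Isg15 stood at 34.1 and 32.3 FPKM and Usp18 at 7.63 and 8.51 FPKM in B16-F1R2, between the other lines. Members of the Oas, Ifit, Gbp and Ifitm families share near-identical stretches, so their separate values are uncertain.

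The machinery that presents peptides on MHC class I was split. Of 21 genes 14 rose and 6 fell (median 0.82). Without 5 genes that passed the filter only through B16-F1R2L, 9 of 16 rose and 6 fell (median 0.39). H2-K1, a classical heavy chain, rose from 21.6 and 21.2 FPKM (B16-F1) to 97.9 and 88.8 FPKM in B16-F1R2L (log2 fold change 2.12 ± 0.058, adjusted p = 1.93e-06), with the reservation that H2 genes resemble one another closely. The immunoproteasome subunit Psmb8 rose from 0.0862 and 0.27005 FPKM to 7.92 and 6.61 FPKM (log2 fold change 4.805 ± 0.31, adjusted p = 4.93e-05). Tap2, a subunit of the peptide transporter, rose from 0.972 and 0.819 FPKM to 8.39 and 8.38 FPKM (log2 fold change 3.096 ± 0.11, adjusted p = 4.25e-06). Nlrc5, the transactivator of class I genes, named after its values were seen, went from 0.0646 and 0.0901 FPKM to 1.54 and 1.86 FPKM (log2 fold change 3.34 ± 0.23, adjusted p = 7.30e-05). In contrast, the loading factor tapasin (Tapbp) fell from 21.5 and 19.9 FPKM to 8.396 and 9.52 FPKM (log2 fold change -1.203 ± 0.10, adjusted p = 0.000164), and the chaperones Calr and Pdia3 were lower as well. 9 of the 21 genes have a single mm9 position on chromosome 17, and genes without a single position were not counted. Of these 9, 7 rose and 2 fell, although genes of that chromosome were lower as a whole (median -0.34). The remaining genes that fell were H2-T22, Psmb10 and Erap1.

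Among ligands read by immune cells, 7 of 13 rose and 2 fell (1 without B16-F1 library 1 or either B16-F1R2L library), and of the 11 that reached 1 FPKM in both lines 6 rose and 1 fell. Cd276 went from 3.596 and 3.32 FPKM to 7.7001 and 7.13 FPKM (log2 fold change 1.08 ± 0.092, adjusted p = 0.000163). Pvrl2, a ligand of DNAM-1 and TIGIT, went from 20.6 and 19.3 FPKM to 42.1 and 39.2 FPKM (log2 fold change 1.02 ± 0.061, adjusted p = 3.74e-05). Cd274, the PD-1 ligand, named after its values were seen, was at 1.95 and 1.54 FPKM and 4.38 and 4.85 FPKM (log2 fold change 1.36 ± 0.14, adjusted p = 0.000367). All 3 rose while remaining at moderate levels. Of 8 chemokines, receptors and colony stimulating factors 3 rose and 1, which passed the filter only through B16-F1, fell. The lowest log2 fold change of that list was -3.91. The chemokines Cxcl10 and Ccl5, which attract T cells, rose as well, Cxcl10 from 8.01 and 8.37 FPKM to 55.9 and 47.1 FPKM (log2 fold change 2.63 ± 0.084, adjusted p = 3.12e-06) and Ccl5 from 6.68 and 6.19 FPKM to 34.2 and 30.5 FPKM (log2 fold change 2.31 ± 0.074, adjusted p = 3.09e-06). Both stood below their levels in B16-F1R2, where Cxcl10 measured 107 and 113 FPKM (B16-F1R2L against B16-F1R2, log2 fold change -1.096 ± 0.084, adjusted p = 0.00178). Of leukocyte markers only 3 of 17 reached the filter, with summed levels of 3.22 and 3.72 FPKM in B16-F1 and 21.8 and 21.5 FPKM in B16-F1R2L. Nearly all of that rise is Cd79a, a component of the B cell receptor, at 0 and 0.0593 FPKM and 17.1 and 15.9 FPKM (it and Lyz2 were admitted only through B16-F1R2L), while Ptprc, the pan-leukocyte marker, was listed at 0; the part of such cells in these results was not tested.

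Genes of the amino acid response were raised in B16-F1R2L against both other lines. When amino acids are short or translation is otherwise stressed, phosphorylation of eIF2-alpha favours translation of ATF4, which induces amino acid transporters, synthetic enzymes and, under lasting stress, genes such as Ddit3 and Trib3. Of 29 genes of this response 27 rose and none fell against B16-F1 (median 0.59; 7 by a log2 fold change of at least 1), and 26 rose and none fell against B16-F1R2. In the all-gene tables the corresponding shares were 29.6% and 12.3% higher. ATF4 binds composite elements with C/EBP proteins, and 3 promoters are shown with matches to TGATGNAA on either strand in capitals, a motif chosen after the values were known (RefSeq, GRCm38.p6: Asns chr6:7693210-7693459, minus; Chac1 chr2:119350992-119351241, plus; Nupr1 chr7:126625471-126625720, minus).
Asns: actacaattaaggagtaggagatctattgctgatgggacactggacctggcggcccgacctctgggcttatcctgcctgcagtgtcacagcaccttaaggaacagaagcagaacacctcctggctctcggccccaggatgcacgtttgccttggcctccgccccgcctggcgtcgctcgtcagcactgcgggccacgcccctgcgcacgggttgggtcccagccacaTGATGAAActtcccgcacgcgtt
Chac1: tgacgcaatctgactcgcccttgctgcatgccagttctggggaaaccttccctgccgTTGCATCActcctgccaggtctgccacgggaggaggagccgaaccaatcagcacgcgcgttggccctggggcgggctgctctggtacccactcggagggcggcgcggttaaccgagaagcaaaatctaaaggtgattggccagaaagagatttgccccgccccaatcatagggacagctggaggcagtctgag
Nupr1: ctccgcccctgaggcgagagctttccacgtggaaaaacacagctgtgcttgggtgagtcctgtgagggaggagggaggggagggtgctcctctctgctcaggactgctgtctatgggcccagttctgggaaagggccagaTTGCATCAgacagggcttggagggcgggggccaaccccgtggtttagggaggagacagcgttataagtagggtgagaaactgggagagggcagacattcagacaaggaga
The letters were present in 7 of 24 listed genes with an entry (29.2%) and in 3.45% of all promoters, and were not found in these windows before Trib3 and Sesn2.

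Trib3 (chromosome 2, 152163158 to 152169768, minus strand), a pseudokinase that restrains ATF4 and AKT signalling, differed in B16-F1R2L from both other lines. It measured 26.97 and 25.9 FPKM in B16-F1, 13.6 and 13.996 FPKM in B16-F1R2 and 97.4 and 99.1 FPKM in B16-F1R2L. The difference was 1.89 on the log2 scale against B16-F1 (SE 0.046, adjusted p = 1.34e-06) and 2.83 against B16-F1R2 (SE 0.046, adjusted p = 2.61e-06). Trib3 was thus lowest in the lymph node line and highest in the lung-derived line. Nupr1, a stress-induced chromatin protein, stood at 13.9 and 10.6 FPKM in B16-F1, 17.2 and 17.2 FPKM in B16-F1R2 and 71.6 and 77.3 FPKM in B16-F1R2L (log2 fold change 2.61 ± 0.12, adjusted p = 1.29e-05 against B16-F1). Pck2, the mitochondrial PEPCK, stood at 17.9 and 18.7 FPKM, 13.8 and 14.3 FPKM and 42.97 and 47.7 FPKM in the same order (log2 fold change 1.304 ± 0.065, adjusted p = 1.86e-05 against B16-F1). Chac1, which degrades glutathione, was at 28.4 and 22.9 FPKM, 9.12 and 8.34 FPKM and 39.1 and 36.5 FPKM, so that its rise was modest against B16-F1 (log2 fold change 0.57 ± 0.11, adjusted p = 0.00506) and large against B16-F1R2 (log2 fold change 2.103 ± 0.11, adjusted p = 0.000694).

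The list holds transcription factors, enzymes and transporters. Cebpb rose from 9.70002 and 11.4 FPKM to 60.2 and 42.9 FPKM (log2 fold change 2.26 ± 0.16, adjusted p = 7.53e-05). Aldh1l2, a mitochondrial folate enzyme, rose from 4.74 and 4.28 FPKM to 11.9 and 16.02 FPKM (log2 fold change 1.596 ± 0.15, adjusted p = 0.000225). The following genes of the list were named after their values were seen. Atf4 itself measured 305 and 288 FPKM in B16-F1 and 411 and 426 FPKM in B16-F1R2L (log2 fold change 0.50 ± 0.05, adjusted p = 0.000335). Asns, which makes asparagine, measured 130.5 and 124 FPKM and 251 and 274 FPKM (log2 fold change 1.04 ± 0.055, adjusted p = 2.33e-05). The large neutral amino acid transporter Slc7a5 measured 129 and 135 FPKM and 236 and 235 FPKM (log2 fold change 0.83 ± 0.049, adjusted p = 3.65e-05). For these 3 genes the B16-F1R2 libraries, at 267 and 256 FPKM for Atf4, 129 and 126 FPKM for Asns and 131 and 141 FPKM for Slc7a5, lay near or below B16-F1. The 2 genes that did not pass the test were the cystine transporter Slc7a11 (log2 fold change 0.14 ± 0.17, adjusted p = 0.517) and Wars (log2 fold change 0.09 ± 0.055, adjusted p = 0.203).

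The chaperones of the endoplasmic reticulum moved the opposite way. The unfolded protein response has 3 sensors, PERK, IRE1 and ATF6; only the first also raises ATF4, and the other two induce chaperones and degradation factors. Of 23 genes 21 fell and 1 rose (median -0.62; 3 fell by a log2 fold change of at least 1), and against B16-F1R2 11 were lower and 3 higher, beside 10.5% and 12.3% of all genes. The 11 became 5 without either B16-F1 library, 2 and 3 without B16-F1R2 library 1 and library 2, and 2 without B16-F1R2L library 2, and the 3 became 0, 2 and 1 without B16-F1R2 library 1, B16-F1R2 library 2 and B16-F1R2L library 2. Hspa5, the central chaperone BiP, fell from 918 and 869 FPKM (B16-F1) to 460.2 and 412 FPKM in B16-F1R2L (log2 fold change -1.04 ± 0.065, adjusted p = 4.57e-05). Calr, calreticulin, fell from 1180.3 and 1164 FPKM to 550.1 and 506 FPKM (log2 fold change -1.15 ± 0.055, adjusted p = 1.53e-05). Pdia4, a disulphide isomerase, fell from 321 and 316 FPKM to 129 and 124 FPKM (log2 fold change -1.33 ± 0.042, adjusted p = 2.89e-06). These are losses from a high level, and the libraries of the lines were well apart. Ern1, which encodes the sensor IRE1, was the gene that rose, from 4.4999 and 4.69 FPKM to 10.3 and 10.3 FPKM (log2 fold change 1.15 ± 0.072, adjusted p = 4.69e-05), while Eif2ak3, which encodes PERK, fell (log2 fold change -0.77 ± 0.061, adjusted p = 0.00012). Canx was not called.

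**Figure D4:**
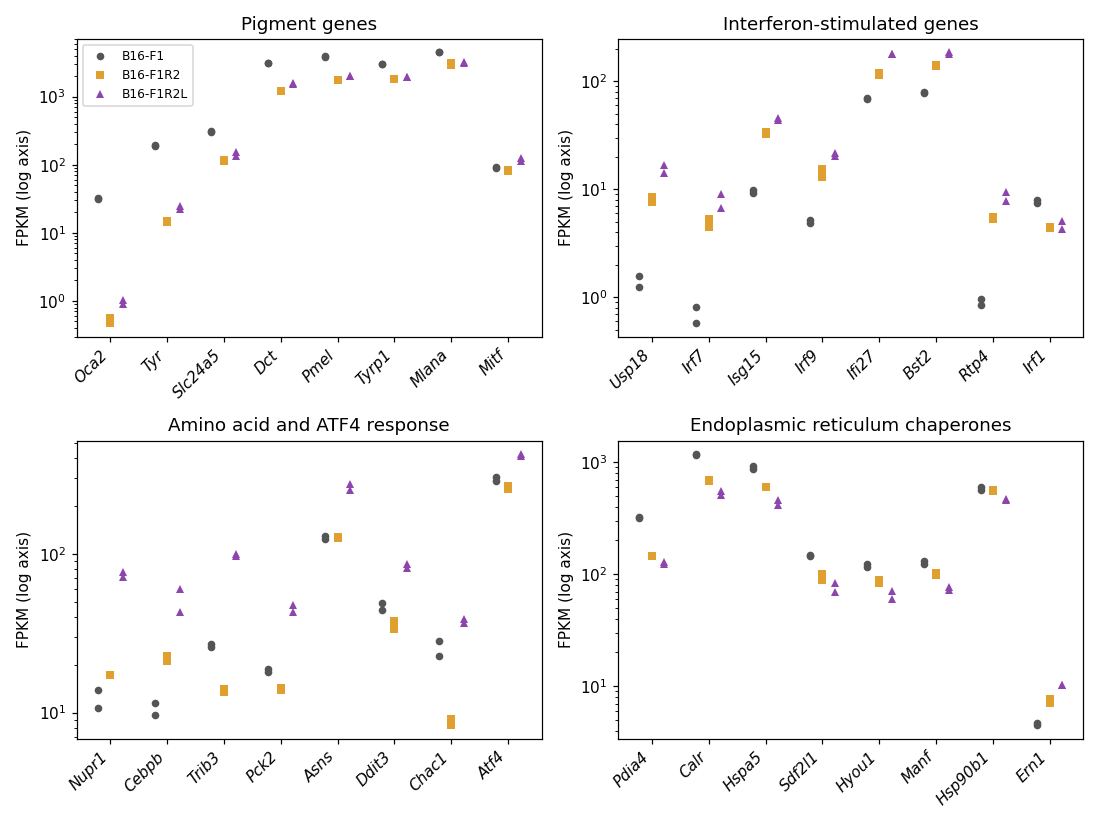
Levels of 8 genes in each of 4 groups, in FPKM on a log axis, with 1 point per library for B16-F1 (circles), B16-F1R2 (squares) and B16-F1R2L (triangles). Pigment genes other than Mitf are highest in B16-F1, interferon-stimulated genes other than Irf1 are highest in B16-F1R2L, the 8 amino acid response genes are highest in B16-F1R2L with B16-F1R2 mostly at or below B16-F1, and the chaperones other than Ern1 are lowest in B16-F1R2L. Part of the genes drawn were chosen after their values were seen.

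Sterol and fatty acid synthesis was lower in B16-F1R2L. SREBP factors drive these enzymes together. None of 35 genes rose and 30 fell (median -0.52), 2 of them by a log2 fold change of at least 1. Fdps, which makes farnesyl pyrophosphate, fell from 384 and 383 FPKM to 202 and 188 FPKM (log2 fold change -0.98 ± 0.058). Acat2 fell from 52.996 and 53.5 FPKM to 27.03 and 25.04 FPKM (log2 fold change -1.03 ± 0.052). Tm7sf2 and Hsd17b7, further sterol enzymes, fell by 1.09 and 0.92 on the log2 scale. Against B16-F1R2, 11 genes of this list were higher in B16-F1R2L and 2 lower, beside 12.3% and 10.5% of all genes, and with 1 library left out the list counted 4 (without B16-F1R2 library 1) to 7 (without B16-F1R2L library 1) genes higher, and 0 lower except without B16-F1R2L library 1 (2); Fdps stood at 174 and 159 FPKM in B16-F1R2 (log2 fold change 0.23 ± 0.058).

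Glycolytic and hypoxia-responsive genes were mostly higher, 27 of 36, with 4 lower (median 0.45), or 2 lower without B16-F1 library 2 or either B16-F1R2L library. Pdk1, which keeps pyruvate out of the mitochondrion, rose from 2.62 and 2.78 FPKM (B16-F1) to 22.7 and 25.7 FPKM in B16-F1R2L (log2 fold change 3.12 ± 0.085). Bnip3, a mitophagy receptor, rose from 12.1 and 11.4 FPKM to 54.8 and 62.9 FPKM (log2 fold change 2.31 ± 0.083). Pfkl, a phosphofructokinase, rose from 23.3 and 24.3 FPKM to 68.04 and 71.3 FPKM (log2 fold change 1.55 ± 0.059). In the opposite direction, the lactate exporter Slc16a3 fell from 5.94 and 6.15 FPKM to 1.19 and 1.46 FPKM (log2 fold change -2.11 ± 0.15); Aldoc, Ldhb and Kdm3a were the others that fell. Vegfa, a target of hypoxia and the main growth factor of blood vessels, was at 7.05 and 6.05 FPKM in B16-F1, 9.06 and 9.35 FPKM in B16-F1R2 and 17.2 and 20.3 FPKM in B16-F1R2L, higher in the last than in both others (log2 fold change 1.5 ± 0.11 against B16-F1; log2 fold change 1.01 ± 0.11 against B16-F1R2).

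Genes of NADPH oxidases and of NRF2 showed no common direction, with 4 of 23 higher and 7 lower (median -0.066); 2 were higher without B16-F1 library 1 or B16-F1R2L library 1, and 4 lower without B16-F1 library 2. Beside Cyba, the glutathione transferase Gsta4 rose from 1.201 and 1.63 FPKM to 35.1 and 37.6 FPKM (log2 fold change 4.601 ± 0.16) and Gstm1 fell from 88.4 and 87.3 FPKM to 41.9 and 44.999 FPKM (log2 fold change -1.02 ± 0.052). Small heat shock genes were mixed too, with 3 of 10 higher and 4 lower, and 2 and 3 of the 8 that reached 1 FPKM in both lines. Hspb1 rose from 14.1 and 17.6 FPKM to 77.1 and 63.2 FPKM (log2 fold change 2.14 ± 0.13) in addition to Clu. Relative to B16-F1R2, 4 of the 23 NADPH oxidase and NRF2 genes were higher and 10 lower. Of the 10 small heat shock genes 1 was higher and 6 lower there, beside 12.3% and 10.5% of all genes.

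Of 12 collagen chains over the filter 9 rose and none fell (median 1.70), but 5 of the 9 (Col1a1, Col1a2, Col9a1, Col17a1 and Col20a1) passed the filter only through B16-F1R2L. Of the other 7 chains 4 rose and none fell (median 0.64). With no filter 16 chains were higher and 3 lower, and with a filter of 5 FPKM 4 were higher and none lower. Col5a1, a chain of fibrillar collagen V, rose from 3.01 and 3.197 FPKM (B16-F1) to 12.8 and 11.7 FPKM in B16-F1R2L (log2 fold change 1.95 ± 0.086). Col4a1 of the basement membrane rose from 2.398 and 1.96 FPKM to 10.2 and 10.1 FPKM (log2 fold change 2.18 ± 0.10). Col1a1 separated the 3 lines, with 0.226 and 0.311 FPKM in B16-F1, 2.81 and 2.19 FPKM in B16-F1R2L and 16.8 and 17.1 FPKM in B16-F1R2 (log2 fold change 2.82 ± 0.17 against B16-F1; log2 fold change -2.73 ± 0.17 against B16-F1R2). Col1a1, Col1a2 and Pdgfrb are also fibroblast markers: these 3 of 12 markers passed the filter, all through B16-F1R2L alone, their list summed to 2.69 and 2.79 FPKM in B16-F1 and 12.8 and 11.4 FPKM in B16-F1R2L, and Dcn, Lum and Thy1 were listed at 0 in both lines; their part in the collagen rise was not tested.

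Several adhesive glycoproteins were higher in B16-F1R2L. Spp1, which encodes osteopontin, rose from 0.609 and 0.688 FPKM to 31.7 and 32.6 FPKM (log2 fold change 5.43 ± 0.079) and also lay above B16-F1R2, at 15.7 and 16.3 FPKM (log2 fold change 1.004 ± 0.079). Fn1, fibronectin, rose from 4.74 and 4.95 FPKM to 23.8 and 21.3 FPKM (log2 fold change 2.19 ± 0.09). Hapln1, which links hyaluronan to proteoglycans, rose from 0.143 and 0.0616 FPKM to 10.2 and 11.02 FPKM (log2 fold change 5.75 ± 0.19), though to a lower level than the 21.1 and 22.002 FPKM of B16-F1R2. Wisp1 rose as well (log2 fold change 2.52 ± 0.071). Of 18 fibronectins, proteoglycans and matricellular proteins 9 rose and 5 fell (3 without B16-F1 library 2 or B16-F1R2L library 1), and of the 12 that reached 1 FPKM in both lines 5 rose and 3 fell (median -0.035). Tnxb, Matn4 and Prelp, at low levels and named after their values were seen, also changed by a large factor (log2 fold change 4.58 ± 0.19; log2 fold change 4.02 ± 0.40; log2 fold change -3.86 ± 0.38). In the elastic fibre list, 5 of 11 rose and 3 fell, and of the 9 that reached 1 FPKM in both lines 3 rose and 3 fell (median -0.097). Emilin1, an elastic fibre glycoprotein that restrains growth, was at 4.501 and 4.41 FPKM in B16-F1 and 35.5 and 30.4 FPKM in B16-F1R2L (log2 fold change 2.86 ± 0.079). Mfap2, a microfibril protein, rose from 0.105 and 0.2098 FPKM to 8.42 and 7.896 FPKM (log2 fold change 5.03 ± 0.29), whereas the fibulin Fbln1 fell from 49.5 and 47.7 FPKM to 22.2 and 22.96 FPKM (log2 fold change -1.103 ± 0.048). Basement membrane genes were divided, 5 of 11 higher and 4 lower, or 3 and 3 of the 8 that reached 1 FPKM in both lines (and 3 of 11 higher without B16-F1 library 2 or B16-F1R2L library 1), with Lama5 (log2 fold change 1.34 ± 0.11) rising and Lamb1, described above, falling.

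Integrins, the receptors for these proteins, tended upward, with 8 of 11 higher and only Itgav lower (median 0.66), and 6 of 9 higher and 1 lower without the genes that passed the filter only through B16-F1R2L (median 0.64). The call of Itgav was lost without any 1 library of either line. Itga5, the fibronectin receptor chain, rose from 8.61 and 9.47 FPKM to 18.8 and 17.5 FPKM (log2 fold change 1.00 ± 0.074). Itga4, which pairs with beta-1 to bind VCAM-1 and fibronectin, rose from 10.4 and 10.6 FPKM to 20.1 and 21.9 FPKM (log2 fold change 0.99 ± 0.067). Itga9 separated B16-F1R2L from both other lines, with 5.94 and 5.56 FPKM in B16-F1, 5.59 and 5.41 FPKM in B16-F1R2 and 9.39 and 9.72 FPKM in B16-F1R2L (log2 fold change 0.72 ± 0.073 against B16-F1). Itgb2, the beta chain of leukocyte integrins, was at 0.02805 and 0 FPKM and 10.9 and 10.96 FPKM and was called higher, while Itgb1 measured 192 and 191 FPKM and 194 and 206 FPKM and was not called.

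Of 26 matrix proteases and inhibitors 9 rose and 8 fell, and of the 22 that reached 1 FPKM in both lines 5 rose and 8 fell (median -0.071). Mmp2, gelatinase A, rose from 1.22 and 1.06 FPKM to 30.7 and 29.6 FPKM (log2 fold change 4.61 ± 0.08). Its inhibitors Timp1, from 4.81 and 5.24 FPKM to 18.3 and 14.7 FPKM (log2 fold change 1.69 ± 0.12), and Timp3, from 3.31 and 3.11 FPKM to 8.804 and 10.9 FPKM (log2 fold change 1.58 ± 0.13), rose as well, whereas Timp2, named after its values were seen, was more abundant and fell from 96.5 and 96.5 FPKM to 83.98 and 78.8 FPKM (log2 fold change -0.25 ± 0.045). Mmp14, the membrane protease that activates MMP2, named after its values were seen, was lower (log2 fold change -0.46 ± 0.062). Of 9 genes of calcium-binding S100 proteins 5 rose and 3 fell (median 0.41), with S100a4, S100a6 and S100a16 among the rises. S100a4, a protein known from metastasis, rose from 7.97 and 8.89 FPKM to 62.9 and 76.3 FPKM (log2 fold change 3.03 ± 0.10). S100a6 rose from 4.51 and 4.42 FPKM to 40.4 and 44.6 FPKM (log2 fold change 3.22 ± 0.061). S100a1, by contrast, fell from 109 and 116 FPKM to 50.3 and 59.6 FPKM (log2 fold change -1.04 ± 0.11). Cadherin and EMT genes changed little: 4 of 9 rose and 2 fell, none by a log2 fold change of 1, with Cdh2, N-cadherin, at 27.8 and 27.6 FPKM and 42.1 and 41.5 FPKM (log2 fold change 0.59 ± 0.048) and beta-catenin (Ctnnb1) at 588 and 584 FPKM and 411 and 429 FPKM (log2 fold change -0.48 ± 0.044).

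Receptor tyrosine kinases moved in both directions. Met, the HGF receptor, fell from 146 and 147 FPKM (B16-F1) to 42.96 and 45.8 FPKM in B16-F1R2L (log2 fold change -1.72 ± 0.046). Mst1r, the related receptor RON, had a value of 0 in both libraries of B16-F1 and measured 5.48 and 6.96 FPKM in B16-F1R2L (adjusted p = 2.76e-06). Pdgfrb rose from 0.183 and 0.133 FPKM to 6.21 and 5.33 FPKM (log2 fold change 4.51 ± 0.16). Of 17 receptors 9 rose and 5 fell, and of the 11 that reached 1 FPKM in both lines 5 rose and 4 fell (median 0.22). The output and feedback genes of the MAPK cascade were mostly lower, 10 of 14, with Myc and Ier2 higher (median -0.63). Spry1, a feedback inhibitor, fell from 8.31 and 8.36 FPKM to 1.47 and 1.25 FPKM (log2 fold change -2.54 ± 0.12). Ccnd1, cyclin D1, was at 64.5 and 63.7 FPKM in B16-F1, 33.9 and 33.2 FPKM in B16-F1R2 and 22.1 and 21.4 FPKM in B16-F1R2L, the lowest of the 3 lines (log2 fold change -1.56 ± 0.043 against B16-F1; log2 fold change -0.63 ± 0.043 against B16-F1R2). Myc rose from 17.3 and 18.02 FPKM to 40.9 and 36.04 FPKM (log2 fold change 1.12 ± 0.10).

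Developmental pathways showed no common direction. In the Wnt list 12 of 23 rose and 6 fell, and 8 and 4 of the 17 that reached 1 FPKM in both lines (median 0.086), with the ligand Wnt6 rising from 0.247 and 0.308 FPKM to 6.92 and 5.77 FPKM (log2 fold change 4.09 ± 0.15) and the co-receptor Lrp5 from 7.34 and 7.34 FPKM to 27.5 and 24.9 FPKM (log2 fold change 1.82 ± 0.067). Axin2, a target and feedback gene of the canonical pathway, named after its values were seen, was lower (log2 fold change -0.63 ± 0.13). Of 27 genes of TGF-beta and BMP signalling 10 rose and 11 fell (7 without B16-F1 library 1), and 9 and 10 of the 25 that reached 1 FPKM in both lines, the targets Id2 (log2 fold change -1.05 ± 0.067) and Id3 (log2 fold change -0.91 ± 0.13) among the latter. Notch genes counted 6 higher and 4 lower of 12, and 3 higher and 2 lower of the 7 that reached 1 FPKM in both lines (median -0.18); the 4 lower were 2 without B16-F1 library 1 and 1 without B16-F1 library 2. The largest changes were in Hes7 (log2 fold change 3.11 ± 0.24) and Hes1 (log2 fold change -1.27 ± 0.38), both at low levels and named after their values were seen (the call of Hes1 was lost in limma without either B16-F1 library or without B16-F1R2L library 1, adjusted p 0.0754 to 0.107). Numb was at 7.93 and 7.697 FPKM and 12.6 and 13.3 FPKM (log2 fold change 0.72 ± 0.062). Among growth factors of vessels, 6 of 12 rose and 3 fell, and 4 and 3 of the 10 that reached 1 FPKM in both lines (median 0.019); Sema3f, a repellent of endothelial cells, rose from 0.417 and 0.262 FPKM to 6.63 and 5.699 FPKM (log2 fold change 3.85 ± 0.19), and Pdgfa fell from 6.97 and 5.38 FPKM to 2.9998 and 3.703 FPKM (log2 fold change -0.86 ± 0.15). Vegfc, the lymphatic growth factor, named after its values were seen, measured 11.9 and 11.5 FPKM and 10.7 and 10.8 FPKM and was not called (adjusted p = 0.17).

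Tetraspanins and factors of vesicle release counted 16 lower and 7 higher of 34 (median -0.088), with 3 and 4 higher without B16-F1 library 1 or library 2. Tspan10, a tetraspanin of pigment cells, fell from 317 and 323 FPKM to 128 and 135 FPKM (log2 fold change -1.28 ± 0.045). Cd82, a suppressor of metastasis, fell from 6.18 and 6.52 FPKM to 2.75 and 2.604 FPKM (log2 fold change -1.22 ± 0.10), and Sdcbp, the exosome adaptor syntenin, from 315 and 318 FPKM to 172 and 181 FPKM (log2 fold change -0.84 ± 0.043). Cd37, a tetraspanin of lymphocytes, was called higher, at 0.184 and 0 FPKM and 23.2 and 24.2 FPKM.

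Proliferation genes showed no common direction against B16-F1. Of 38 genes of DNA replication 10 rose and 8 fell (median -0.050), and of 36 mitotic genes 11 rose and 11 fell (median -0.0040), none of either list by a log2 fold change of 1. The falls of the replication list counted 5, 3 and 5 without B16-F1 library 1, B16-F1 library 2 or B16-F1R2L library 2 and 12 without B16-F1R2L library 1, and those of the mitotic list 6 and 7 without B16-F1 library 2 or B16-F1R2L library 2. Mki67 stood at 42.7 and 39.7 FPKM in B16-F1 and 62.5 and 61.4 FPKM in B16-F1R2L (log2 fold change 0.59 ± 0.048) and Foxm1 at 65.1 and 67.5 FPKM and 45.8 and 44.5 FPKM (log2 fold change -0.55 ± 0.051). Relative to B16-F1R2, 10 of the 38 replication genes and 7 of the 36 mitotic genes were lower and none higher, beside 10.5% and 12.3% of all genes. Of 21 genes of the Cdkn2a locus and of p53 targets 6 rose and 6 fell, and of the 19 that reached 1 FPKM in both lines 4 rose and 6 fell. The CDK inhibitor Cdkn2c fell from 46.8 and 46.99 FPKM to 22.9 and 19.8 FPKM (log2 fold change -1.14 ± 0.084), and Rb1 rose from 4.298 and 3.93 FPKM to 7.88 and 9.39 FPKM (log2 fold change 1.05 ± 0.11).

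Between B16-F1R2L and B16-F1R2, 1372 genes (12.3%) were higher in the lung-derived line and 1169 (10.5%) higher in the lymph node line, 22.8% of those tested. Without B16-F1R2 library 1 these counts were 288 and 132, and without B16-F1R2L library 2 they were 325 and 201; each of the 4 other libraries left out also lowered them. Since both contrasts involve the same B16-F1R2L libraries, their counts are given side by side and not tested against each other. Of the 8 largest rises over B16-F1R2, Trib3, Nupr1, Chac1 and Pck2 belong to the amino acid response. Neat1, a nuclear RNA that scaffolds paraspeckles, measured 10.5 and 13.8 FPKM in B16-F1, 7.88 and 11.97 FPKM in B16-F1R2 and 31.7 and 47.2 FPKM in B16-F1R2L (log2 fold change 1.98 ± 0.26, adjusted p = 0.0076 against B16-F1R2). Nr4a3, an orphan nuclear receptor, measured 8.78 and 8.82 FPKM, 6.86 and 6.19 FPKM and 19.2 and 21.05 FPKM (log2 fold change 1.61 ± 0.078, adjusted p = 0.000576). Txnip, an inhibitor of thioredoxin and of glucose uptake, was at 12.2 and 16.999 FPKM, 5.31 and 5.51 FPKM and 15.2 and 19.002 FPKM, and was higher than in B16-F1R2 (log2 fold change 1.63 ± 0.17, adjusted p = 0.00404) without differing detectably from B16-F1 (adjusted p = 0.276). Gm12238 was listed at 0 and 19.2 FPKM in the 2 B16-F1 libraries and cannot be placed.

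The largest falls against B16-F1R2 began with Col1a1. Abca12, a lipid transporter, declined over the 3 lines, with 16.7 and 17.5 FPKM in B16-F1, 7.66 and 7.89 FPKM in B16-F1R2 and 3.399 and 3.63 FPKM in B16-F1R2L (log2 fold change -1.12 ± 0.071, adjusted p = 0.001). Nppb, a natriuretic peptide, was at 10.03 and 9.03 FPKM, 32.02 and 31.9 FPKM and 18.03 and 16.8 FPKM (log2 fold change -0.87 ± 0.069, adjusted p = 0.00186). Rpph1, an RNA component of ribonuclease P, was at 114 and 104 FPKM in B16-F1R2 and 62.9 and 48.2 FPKM in B16-F1R2L, and as an RNA without a poly(A) tail its level in such libraries is hard to read. Pafah1b3, Cxcl10 and Hapln1 were also among the largest falls. The calls of Hapln1 (adjusted p up to 0.0866), Pafah1b3 (up to 0.137) and Rpph1 (up to 0.0694) against B16-F1R2 were lost in limma when 1 library was left out: any library of B16-F1R2 or B16-F1R2L for Hapln1, any but B16-F1R2 library 2 for Pafah1b3, and B16-F1R2 library 1 or B16-F1R2L library 2 for Rpph1.

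At the top of the expression range, the 6 most abundant genes of B16-F1R2L were Ftl1, Eef1a1, Ppia, Rplp1, Tmsb10 and Rpl41, all with many processed pseudogenes and therefore uncertain. Tmsb10, thymosin beta-10, which binds actin monomers, was the only one of them that was higher, at 1642 and 1635 FPKM in B16-F1 and 3982 and 3721 FPKM in B16-F1R2L (log2 fold change 1.23 ± 0.068, adjusted p = 2.80e-05). Ftl1, Eef1a1 (both without a difference under quantile normalization) and Rplp1 were lower by 0.31 to 0.49 on the log2 scale, calls that were lost for Ftl1 without any one of the B16-F1 or B16-F1R2L libraries (adjusted p 0.0591 to 0.23), for Eef1a1 without any of these except B16-F1R2L library 1 (0.0583 to 0.0977) and for Rplp1 without B16-F1 library 2 (0.0586), and Ppia and Rpl41 were not called, although Ppia was called higher with quantile normalization. Hprt, often used as a reference gene, measured 97.9 and 92.97 FPKM and 115 and 121 FPKM and was higher (log2 fold change 0.30 ± 0.05, adjusted p = 0.00267).

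Differences were not spread evenly over the genome. 10321 genes had a single position on mm9. On chromosome 17 the median log2 fold change was -0.34 over 520 genes, of which 59.8% were lower and 11.9% higher. On chromosome 14 it was 0.34 over 354 genes, of which 61.9% were higher and 12.4% lower. The medians of the other chromosomes lay between -0.096 (chromosome 6) and 0.13 (chromosome 1). Within chromosome 14 the shift was not uniform: the 308 genes that lie before 80 Mb had a median of 0.39, and the 40 genes after 100 Mb a median of -0.25. On chromosome 1 the 150 genes before 60 Mb had a median of 0.34 and the 178 genes from 60 to 130 Mb one of 0.060, while the 63 genes from 130 to 150 Mb again had a higher one, 0.30, and the 184 genes after 150 Mb one of -0.035. On chromosome 15 the 128 genes before 70 Mb had a median of 0.29 and the 281 after it one of 0.040. The limits of these stretches were set after their values were seen and the medians carry no test. Against B16-F1R2 the medians of chromosomes 14 and 17 were 0.018 and 0.023. Lgals3 lies in the first of these stretches of chromosome 14 and fell while most genes there rose, and Dct lies in the one after 100 Mb.

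**Figure D5:**
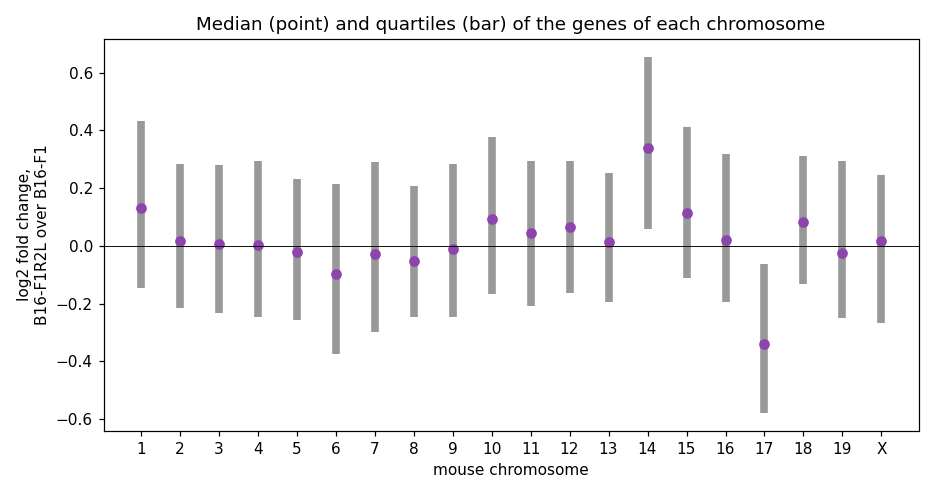
Median log2 fold change of B16-F1R2L over B16-F1 (points) with the quartiles (bars) for the genes of each mouse chromosome. Chromosome 14 (0.34) and chromosome 17 (-0.34) stand apart from the other chromosomes, whose medians lie between -0.096 and 0.13.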

How the data were processed

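The 3 melanoma lines were sequenced in 2 libraries each (stranded poly(A) libraries, 50-base single reads). The deposited FPKM values were made by the authors: per the submitters' notes and the study's methods, reads were aligned to mm9 with TopHat2 2.0.10 (Bowtie 1.0.0, SAMtools 0.1.1.9), allowing 2 mismatches and 20 placements, and normalized with Cuffnorm, whose version, like the gene annotation, is not given in the sources used here. Multiply placed reads make values of near-identical genes uncertain. Groups came from the sample labels; no other column was used. Values were tested as log2(FPKM + 0.1), so changes of low genes are understated, with limma 3.58.1 in R 4.3.3 (all 6 libraries, variance trend, Benjamini-Hochberg adjustment over 11379 genes with at least 1 FPKM in 2 libraries, threshold 0.05); every adjusted p is limma's. Neither counts nor read totals were used, so no count model was run. The script was tested on simulated data. Positions on mm9 came from the GENCODE annotation of that build.

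Genes named in full are, by rule, the 12 largest rises and 12 largest falls among called genes with a mean of at least 10 FPKM in the higher line and libraries that do not overlap; up to 4 called genes per list with a mean of at least 5 FPKM; 11 genes given whatever their values; the 8 highest and 8 lowest against B16-F1R2; and the 6 most abundant genes. Any other gene was chosen after its values were seen, and some genes that the rule takes are not reported here (7 of the 8 lowest against B16-F1R2 are given). The genes and lists were chosen with earlier results of these data known. Promoters came from a RefSeq table (GRCm38.p6), cut to the 250 bases before the start site. Alternatives were other pseudocounts, filters, scalings, variance models, a replicate block, a minimum change and leaving out each library. Same-numbered libraries were checked for shared deviations: the correlations of the difference between libraries 1 and 2 were -0.037, -0.079 and 0.065 between pairs of lines. The libraries of each line differed by more than counting noise estimated from the depth (variance 1.23 to 2.75 times as large at the median), so all were kept.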

Additional observations from a re-analysis of the deposited data

How the results depend on the processing

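Against B16-F1, 108 of 164 genes named by rule kept their direction and their side of the threshold under every alternative run; for 56 at least 1 changed it, most of these only through the requirement of a log2 fold change of 1. That requirement left 907 higher and 245 lower genes against B16-F1, and 112 and 11 against B16-F1R2. An equal FPKM total per library gave 2028 lower genes against B16-F1, and 2070 higher and 471 lower against B16-F1R2. The last count was 719 with no filter on low values and 630 without the variance trend. Leaving out each library in turn gave 2516 to 3195 higher and 2134 to 2978 lower genes against B16-F1, and 288 to 898 higher and 132 to 967 lower against B16-F1R2, with the fewest in both without B16-F1R2 library 1 (288 and 132) and few without B16-F1R2L library 2 (325 and 201). With the replicate number as a block, 3239 genes were higher and 3012 lower against B16-F1; of the named genes only Maml1 lost its call under the block (adjusted p = 0.0556), and the numbers do not pair the libraries. Named genes that reversed were Txnip (-0.0017 to 0.47 with 1 library left out), Ppia (0.0037 with equal totals, 0.13 with quantile normalization) and Rpl41 (0.024 and 0.030), none of which was called in the reported fit; Ppia was called with quantile normalization (adjusted p = 0.012). The call of Pdpn was lost without B16-F1 library 2 (0.081) or B16-F1R2L library 1 (0.076), that of Rplp1 without B16-F1 library 2 (0.0586), and those of Maml1, Notch2, Ftl1 and Eef1a1 under several alternatives each. The cause was not tested. Of the lists, interferon-stimulated genes counted 20 to 36 higher (fewest with the filter of 5 FPKM, which tests fewer genes), the amino acid response 26 to 28, and the endoplasmic reticulum list 21 lower under the other pseudocounts, filters, scalings and fits; the requirement of a log2 fold change of 1 left 25, 7 and 3 of them, and 2 of the cholesterol list lower. Depth limits the levels below 1 FPKM, which rest on few reads.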
